A study of Coturnix japonica with 42 samples.

Results

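Amino acid and transmitter transporters are the membrane proteins that clear transmitters from the extracellular space, load them into vesicles and supply cells with amino acids. The genes were chosen by symbol: every probe set with a single annotated symbol beginning SLC1A, SLC6A, SLC7A, SLC17A, SLC18A, SLC32A, SLC36A or SLC38A was taken, SLC7A5 was left out, and the probe set with the highest mean signal over all arrays stood for each gene. That gave 50 genes, with 125 probe sets, of 13009 genes with a single symbol on the array. One of them, SLC7A6OS, shares only the letters of its symbol with the family and is not a transporter, which leaves 49 transporters in 12 groups by role.

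The arrays measured RNA from the mediobasal hypothalamus, the site of the response to day length in birds, in male Japanese quail aged 8 weeks. All birds had been kept for 4 weeks on 6 h of light and 18 h of dark, and the light was then extended to 20 h, with 4 h of dark, for 2 days. The second long day had 6 time points (50, 54, 58, 62, 66 and 70 h), the first long day had 9 (26, 30, 34, 36, 38, 40, 42, 44 and 46 h), and the short day before them had 6 (2, 6, 10, 14, 18 and 22 h). Each of the 21 time points had 2 arrays, and each array held pooled RNA of 3 birds, so 6 birds stood behind a time point. No short-day arrays ran beside the long days, so day length and the order of the days cannot be told apart. Hours are counted from the start of the short day, and an hour of a long day is set against the same clock hour of the short day. The labels used here do not say at which hour the light came on. With 6 h of light on the short day, 26 and 30 h of the first long day may thus come before any added light. The array carries chicken probes, so a quail sequence that differs from the chicken one can lower the signal of a probe set, and the signals of different genes are not set against each other.

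Glutamate and GABA, the main excitatory and inhibitory transmitters of the hypothalamus, act between the moment a vesicle releases them and the moment a carrier takes them up, mostly into astrocytes. Astrocytes turn glutamate into glutamine, and neurons take glutamine up again through carriers of the SLC38 family to remake both transmitters. Monoamines and acetylcholine are loaded into vesicles by their own carriers, and the SLC7 and SLC36 families move amino acids in bulk across plasma and lysosomal membranes.

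Signals are in the arbitrary units of the scanner software, after each array was scaled to the same trimmed mean. Of the 50 genes, 20 lay above the array's own median on all 42 arrays and 10 did so on 20 arrays or fewer. In 20 genes at least 1 array fell to or below the floor of 3.509 that was set before logs were taken. All 50 passed the filter for testing, which asked for a signal above the array median on at least 2 of the 42 arrays. The within-time SD of the 2 arrays was 0.316 at the median on the log2 scale, in the 30 genes with no array at the floor and 0.738 in the 20 others, beside 0.633 over all 32057 tested probe sets. The correlation between the 2 arrays of a time point ran from 0.812 to 0.890 over the 6 times of the second long day, against 0.890 to 0.907 on the first long day and 0.891 to 0.904 on the short day. Before scaling, the arrays of the second long day were dimmer than the others, with a trimmed mean of 29.0 ± 3.17 (SD, n = 12) against 33.1 ± 2.58 (n = 18) on the first long day and 34.8 ± 3.61 (n = 12) on the short day.

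**Figure D1:**
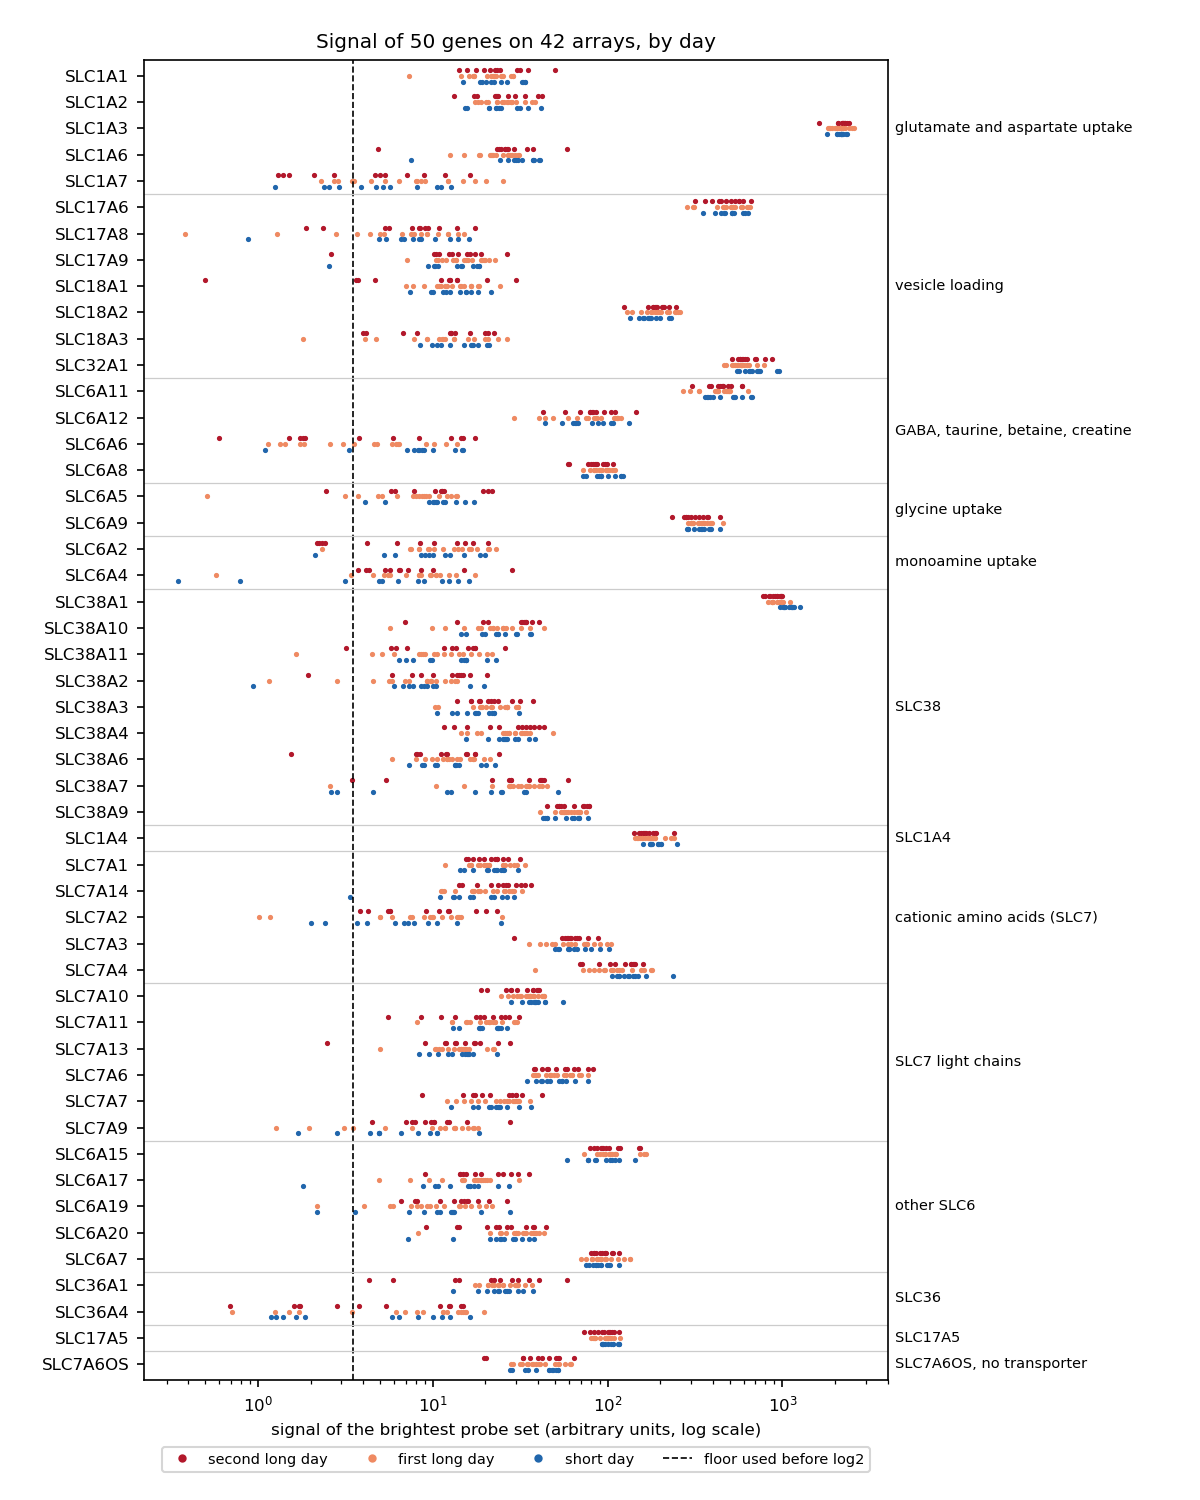
Signal of the brightest probe set of each of the 50 genes (arbitrary units, log axis) on the 12 arrays of the second long day, the 18 of the first long day and the 12 of the short day, with 1 point per array and the genes grouped by role. The dashed line is the floor of 3.509; 20 genes have an array at or below it, and in every gene the second long day and the short day overlap.

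A single gene of the 50 was called between the second long day and the short day. This was SLC38A1, a sodium-coupled carrier that in rodents brings glutamine into neurons, lower by its brightest probe set. None of the other 49 passed the test in either direction. The test was limma's moderated test with Benjamini-Hochberg adjustment over all 32057 probe sets, at an adjusted p under 0.05. It called 1.37% of all probe sets, 0.396% higher and 0.97% lower, so the 2% of these genes is near that background. At an unadjusted p under 0.05 there were 4 genes, or 8% of the 50 against 11.9% of all probe sets. The log2 differences of the 50 genes ran from -0.47 to 0.75, with 22 above 0 and 28 below, and their median was -0.01 beside 0.04 over all probe sets. In 0 of the 50 genes were the arrays of the second long day and of the short day apart without overlap, beside 0.0468% of all probe sets. The median size of the difference, sign aside, was 0.128 in these genes and 0.185 over all probe sets.

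SLC38A1 had signals on the second long day with a lowest value of 771, a median of 917 and a highest value of 997, against 970, 1104 and 1262 on the short day. The highest arrays of the second long day thus overlapped the lowest of the short day, while 9 of the 12 lay below every short-day array. Its mean was 902 ± 75.9 on the second long day and 1093 ± 83.9 on the short day (SD, n = 12 each). The log2 difference was -0.28 (SE 0.0537, 95% interval -0.39 to -0.17, adjusted p = 0.00255 with limma), which is 1.21-fold lower, and it was lower at 6 of 6 hours. It had the 103rd smallest p of the 32057 probe sets.

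By hour, SLC38A1 averaged 1214 at 2 h, 1124 at 6 h, 1138 at 10 h, 999 at 14 h, 1026 at 18 h and 1060 at 22 h of the short day. On the first long day the means were 908, 980, 928, 990, 953, 903, 912, 924 and 1051 from 26 to 46 h. On the second long day they were 962, 850, 885, 877, 911 and 925 from 50 to 70 h. The mean at 26 h, the first sampled hour of the first long day, was thus below every short-day mean. That hour may come before any added light, so this value is not by itself a response to the long day. In all, 8 of the 9 means of the first long day and 6 of the 6 means of the second lay below the lowest mean of the short day. On the first long day 9 of 18 arrays lay below every short-day array.

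None of the single long-day hours of SLC38A1 passed the test on its own. The lowest log2 differences were -0.42 at 26 h (adjusted p = 0.702 with limma), -0.41 at 54 h (adjusted p = 0.666) and -0.37 at 58 h (adjusted p = 0.782). Over hours 2 and 6 together, SLC38A1 averaged 944 ± 54.1 on the first long day and 1169 ± 69.1 on the short day (SD, n = 4 each), and the 8 arrays did not overlap. That difference of -0.31 had an adjusted p of 0.751 with limma. Groups of 4 arrays did not overlap in 3.64% of all probe sets at these hours, and in 1 of the 50 genes. At hours 10 to 22 of the first long day SLC38A1 differed from the short day by -0.14 (interval -0.270 to -0.004, adjusted p = 0.887). This was a smaller shift than the -0.31 at hours 2 and 6, which may precede the added light. Whether these sets of hours differed was not tested. Over the 6 shared hours, which join both sets, the difference was -0.19 (adjusted p = 0.341). Between the second and the first long day the difference was -0.09 (adjusted p = 0.719), so no step between the long days was resolved. The long days are set against the same short-day arrays, and the differences from it are therefore not independent.

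The call of SLC38A1 rested on its brightest probe set. The gene has 6 other probe sets, of which 5 were tested; their differences were -0.12, -0.12, 0.37, 0.14 and -0.12, and none was called. The second probe set averaged 225 ± 40.7 on the second long day and 244 ± 45.2 on the short day (n = 12 each), and over the 42 arrays its log2 signal correlated with that of the brightest at 0.23. With the median over the gene's probe sets in place of the brightest, the difference was 0.082 (adjusted p = 0.844). The call was also lost over hours 10 to 22 alone, at -0.23 (adjusted p = 0.0981), and without a trend of the variance with signal (adjusted p = 0.0987).

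These are tissue samples, so fewer cells of a type and less RNA per cell cannot be told apart. Of 8 tested neuron markers none was called lower on the second long day and 1 was called higher, SYT1, which encodes synaptotagmin 1 of synaptic vesicles, by 0.27 on the log2 scale (adjusted p = 0.0488 with limma). The summed signal of the neuron markers ran from 17437 to 23669 on the second long day and from 18976 to 21653 on the short day. Of 7 astrocyte markers none was called, with sums of 3064 to 4105 on the second long day and 3201 to 3985 on the short day. With the brightness of each array before scaling as a covariate, SLC38A1 differed by -0.34 (adjusted p = 0.0190). Other marker lists were mixed. Of 6 tanycyte and ependymal markers 1 was called, higher, and 4 lay above 0, with VIM, an intermediate filament of tanycytes, at 0.84. Their summed signal ran higher, from 2060 to 5749 on the second long day against 1362 to 2193 on the short day. Of 7 fibroblast and meninges markers 2 were called, both lower, and 2 lay above 0, with DCN at -0.29. Of 7 anterior pituitary markers 2 were called, both higher, and 5 lay above 0. Among them CGA, the common subunit of pituitary glycoprotein hormones, was at 1.09 on the log2 scale. The sum of the pituitary markers ran from 808 to 1965 on the second long day and from 326 to 1360 on the short day. Of 7 choroid plexus markers 1 was called, lower, and 5 lay above 0. The remaining lists had no called marker. In them 7 of 8 microglia and leukocyte markers lay above 0, and 2 of 5 oligodendrocyte markers. The same held for 3 of 9 endothelial, 1 of 6 erythrocyte and 2 of 2 pineal and photoreceptor markers. Of the neuron and astrocyte markers, 4 of 8 and 5 of 7 lay above 0. The arrays of the second long day were also dimmer before scaling and less alike within a time point, as given above. The part of these markers and of the array agreement in the difference of SLC38A1 was not tested.

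**Figure D2:**
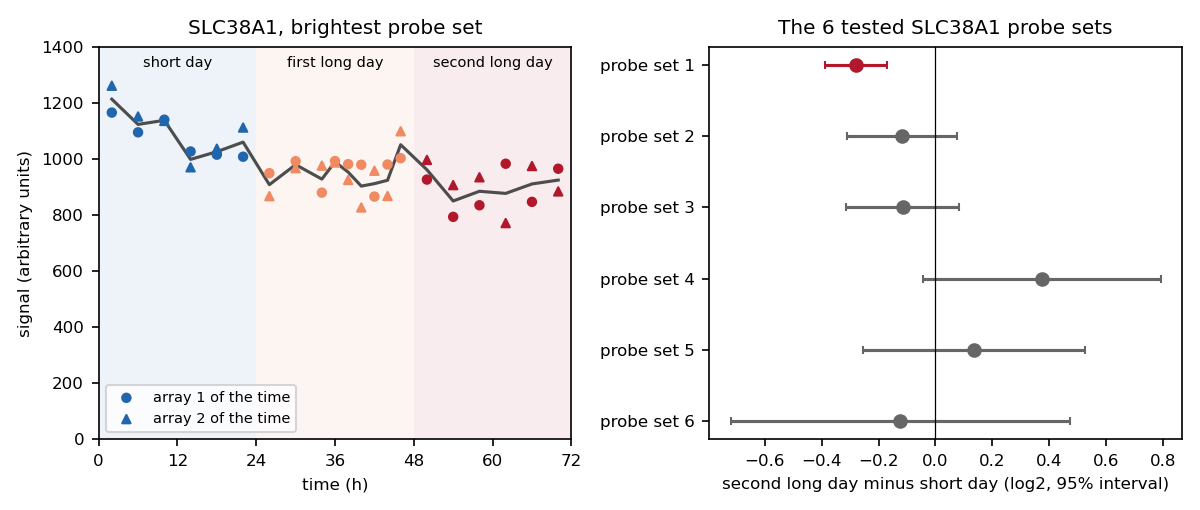
Left, signal of the brightest SLC38A1 probe set (arbitrary units, linear axis from 0) against time in h, with 1 point per array and the line through the means of 21 time points; right, log2 difference of the second long day minus the short day for the 6 tested SLC38A1 probe sets, with 95% intervals, numbered from the brightest. Both long days lie mostly below the short day on the left, and on the right the brightest probe set alone has an adjusted p under 0.05 (in red).

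The other 8 SLC38 genes did not pass the test on the second long day, and their differences ran both ways. SLC38A2, a close relative of SLC38A1, and SLC38A4, its relative known from liver in mammals, adjoin it in the quail genome annotation. There were 0 protein-coding genes between SLC38A1 and SLC38A2 and 0 between SLC38A2 and SLC38A4. SLC38A2 was near the floor, with 11.7 ± 5.09 on the second long day and 9.32 ± 4.79 on the short day (n = 12 each), a difference of 0.31 with an interval from -0.27 to 0.88. SLC38A4 differed by -0.01 (-0.45 to 0.43). SLC38A7, a glutamine carrier placed in lysosomes in human cells, had the highest difference of the 50 genes, 0.75 (-0.05 to 1.55, adjusted p = 0.469), and was higher at 6 of 6 hours. Its arrays spanned 3.44 to 59.2 on the second long day and 2.62 to 52.3 on the short day and so overlapped almost fully. SLC38A3, which in rodents releases glutamine from astrocytes, had 22.4 ± 6.85 and 18.7 ± 5.47, a difference of 0.26 (-0.14 to 0.66). SLC38A9, the lysosomal arginine sensor of human cells, had 63.0 ± 12.1 on the second long day and 57.8 ± 12 on the short day, a difference of 0.13 (-0.09 to 0.35).

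The excitatory amino acid carriers, which take up glutamate and aspartate, did not pass the test in any of the 5 genes. SLC1A3, the glutamate carrier of astrocytes and tanycytes in rodents, ranged over 1623, 2216 and 2397 (lowest, median, highest) on the second long day, 1822, 2142 and 2573 on the first and 1795, 2163 and 2339 on the short day. The 3 days lay over each other, and the difference of the second long day was 0.02 with an interval from -0.09 to 0.13. SLC1A2, the other glial glutamate carrier, had 13.2, 23.3 and 41.9 on the second long day and 15.2, 23.4 and 41.7 on the short day, a difference of 0.02 (-0.36 to 0.39). The neuronal carrier SLC1A1 had 14.2, 23.0 and 49.9 against 15, 23.4 and 33.7 on the short day (difference -0.01). SLC1A6, known from Purkinje cells, had 4.85, 26.1 and 58.4 on the second long day against 7.46, 31.5 and 41.1 on the short day (difference -0.20, adjusted p = 0.786). The retinal carrier SLC1A7 was at or below the floor on 13 of 42 arrays. It had 1.29, 4.80 and 16.4 on the second long day, against 1.25, 4.94 and 12.8 on the short day (difference -0.03).

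The vesicular carriers, which fill synaptic vesicles, gave 5 differences below 0 and 2 above on the second long day, none of them called. SLC32A1 loads GABA and glycine. Its signals were 514, 603 and 876 (lowest, median, highest) on the second long day, 463, 580 and 780 on the first and 547, 694 and 950 on the short day. The differences from the short day were -0.14 (-0.33 to 0.05) on the second long day and -0.23 (adjusted p = 0.887) at hours 10 to 22 of the first. At hours 2 and 6 SLC32A1 averaged 569 ± 38.1 on the first long day and 776 ± 199.6 on the short day (n = 4 each), a difference of -0.41 (adjusted p = 0.853). The short-day arrays of that pair of hours spread widely, and the groups overlapped.

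SLC17A6 is the vesicular glutamate carrier of the hypothalamus in rodents. Its signals were 318, 494 and 664 on the second long day, 283, 515 and 650 on the first and 349, 513 and 635 on the short day, so the 3 days overlapped almost fully (difference -0.06, -0.28 to 0.16, on the second long day). SLC17A8, a vesicular glutamate carrier of few neurons in rodents, was near the floor, at 1.88, 8.38 and 17.4 against 0.874, 8.01 and 16.1 on the short day (difference -0.05). SLC17A9, the vesicular nucleotide carrier, had 2.63, 13.4 and 26.7 on the second long day and 2.55, 14.2 and 18.5 on the short day (difference 0.07).

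SLC18A2 loads dopamine, noradrenaline, serotonin and histamine. It had 125, 190 and 246 on the second long day, 130, 193 and 260 on the first and 135, 174 and 232 on the short day. At hours 10 to 22 it averaged 207 ± 23.6 on the first long day and 174 ± 28.2 on the short day (n = 8 each), and was higher at 4 of 4 hours with overlapping arrays (difference 0.25, adjusted p = 0.884). SLC18A1, its counterpart of endocrine cells in mammals, had the lowest difference of the 50 genes on the second long day, -0.47 (-1.07 to 0.13, adjusted p = 0.565), with 0.496, 12.4 and 29.9 against 7.39, 13.4 and 21.6 on the short day. SLC18A3 loads acetylcholine. At hours 10 to 22 it averaged 10.2 ± 7.38 on the first long day and 15.5 ± 4.43 on the short day (n = 8 each), the lowest difference of that comparison at -0.78 (-1.51 to -0.05, adjusted p = 0.875), while on the second long day its values of 3.97, 12.7 and 22.3 stood against 8.49, 15.9 and 20.9 on the short day.

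The carriers that remove GABA, betaine, taurine and creatine showed no called difference in 4 genes. SLC6A11, the glial GABA carrier of rodents, had 305, 454 and 590 on the second long day, 268, 430 and 634 on the first and 361, 481 and 669 on the short day, with a difference of -0.07 (-0.27 to 0.12) on the second long day. The betaine and GABA carrier SLC6A12 differed by 0.10 (-0.25 to 0.44). SLC6A8 carries creatine and is annotated to 1 probe set. It had 59.6, 85.1 and 108 on the second long day against 72.1, 92.1 and 122 on the short day, which overlapped, and was lower at 5 of 6 hours (difference -0.21, adjusted p = 0.381). The taurine carrier SLC6A6 was at or below the floor on 14 arrays. At hours 10 to 22 it averaged 6.02 ± 4.11 on the first long day and 10.0 ± 4.04 on the short day (difference -0.66, adjusted p = 0.914).

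Of the glycine carriers, SLC6A9, which clears glycine into glia, had 235, 309 and 437 on the second long day and 285, 345 and 439 on the short day (difference -0.12, -0.28 to 0.04). SLC6A5, the glycine carrier of inhibitory neurons, differed by 0.03 on the second long day and by -0.63 (-1.40 to 0.15, adjusted p = 0.918) at hours 10 to 22 of the first, where it averaged 7.25 ± 4.07 against 11.2 ± 3.41 on the short day (n = 8 each). The plasma membrane carriers of noradrenaline, SLC6A2, and of serotonin, SLC6A4, gave low signals. SLC6A2 had 2.18, 7.32 and 20.8 on the second long day against 2.11, 9.82 and 19.8 on the short day (difference -0.40, adjusted p = 0.683). SLC6A4 had 3.74, 6.44 and 28.2 against 0.348, 7.30 and 16.1 on the short day (difference 0.04). In mammals the RNA of both lies mostly in cell bodies of the brainstem.

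The other SLC6 carriers, 5 genes for neutral amino acids and proline, all lay above 0 on the second long day, beside 56.5% of all probe sets. None passed the test. SLC6A15 carries branched-chain amino acids and proline in the brain of rodents. It had 79.1, 95.9 and 153 on the second long day, 73.3, 103 and 165 on the first and 58.9, 91.7 and 144 on the short day. At hours 10 to 22 it had the smallest p of the 50 genes, averaging 120 ± 33.1 on the first long day and 94.3 ± 19.4 on the short day (n = 8 each), higher at 4 of 4 hours (difference 0.34, SE 0.139, adjusted p = 0.825). Its second probe set differed by 0.19 in the same direction. SLC6A17, a carrier of synaptic vesicles in rodents, had 9.05, 18.1 and 35.7 on the second long day against 1.81, 16.1 and 27.4 on the short day (difference 0.51, adjusted p = 0.464). SLC6A7, the brain proline carrier of mammals, differed by 0.05 (-0.16 to 0.25) on the second long day, and SLC6A19 and SLC6A20, both known from kidney and intestine, by 0.39 and 0.03. On that day the second probe sets of SLC6A7 and SLC6A20 lay below 0, at -0.27 and -0.18, and that of SLC6A15 above 0, at 0.14.

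The cationic amino acid carriers of SLC7, which bring in arginine and lysine, gave 2 differences above 0 and 3 below. SLC7A14, a lysosomal member, had 14.0, 25.7 and 36.5 on the second long day against 3.38, 16.6 and 29.2 on the short day. The difference of 0.61 (0.15 to 1.07, adjusted p = 0.219) was the second smallest p of the 50 genes, and the arrays overlapped. At the earliest hour of each day SLC7A14 averaged 23.8 (50 h) and 27.2 (26 h) on the long days, against 8.73 (2 h) before them. The arrays behind these means were 14.0 and 33.5 at 50 h, 22.0 and 32.3 at 26 h, and 3.38 and 14.1 at 2 h. The lower array of 2 h lay below the floor, and the arrays of 50 h and 2 h overlapped. Neither long-day hour passed the test on its own. SLC7A4, for which transport is not established, had 69.2, 131 and 158 on the second long day, 38.2, 106 and 179 on the first and 106, 131 and 238 on the short day. At hours 10 to 22 SLC7A4 averaged 108 ± 34.6 on the first long day and 143 ± 43.2 on the short day (n = 8 each), lower at 4 of 4 hours (difference -0.41, adjusted p = 0.875). SLC7A1, SLC7A2 and SLC7A3 differed by -0.01, 0.39 and -0.13 on the second long day.

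The light chains of the SLC7 family work in pairs with a heavy chain, SLC3A1 or SLC3A2. Of 6 genes, 2 lay above 0 on the second long day and 4 below. SLC7A10 exchanges small neutral amino acids, D-serine among them in rodent brain. It had 18.8, 32.4 and 40.5 on the second long day against 28.0, 38.4 and 55.8 on the short day, lower at 6 of 6 hours with overlap (difference -0.33, adjusted p = 0.340). SLC7A9, the cystine and dibasic carrier of kidney, averaged 11.1 ± 5.90 on the second long day and 7.30 ± 4.55 on the short day (n = 12 each), higher at 6 of 6 hours (difference 0.61, adjusted p = 0.498). SLC7A11, the cystine and glutamate exchanger, differed by -0.25, SLC7A6 by 0.11, and SLC7A7 and SLC7A13 by -0.01 each. SLC3A1, the heavy chain measured here, averaged 7.35 ± 4.61 on the second long day and 10.1 ± 3.83 on the short day (n = 12 each, adjusted p = 0.588).

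SLC1A4, an exchanger of serine, alanine and cysteine, had 142, 164 and 240 on the second long day against 158, 187 and 249 on the short day and was lower at 5 of 6 hours (difference -0.15, adjusted p = 0.503). The lysosomal sialic acid carrier SLC17A5 had 73, 97.8 and 116 on the second long day against 92.2, 102 and 116 on the short day (difference -0.11, adjusted p = 0.639). The proton-coupled lysosomal carrier SLC36A1 differed by -0.28 (adjusted p = 0.745), with 4.31, 23.2 and 58.6 on the second long day against 13.1, 24.9 and 37.3 on the short day, and SLC36A4, at or below the floor on 15 arrays, by 0.01. SLC7A6OS, whose gene adjoins SLC7A6, differed by -0.10.

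**Figure D3:**
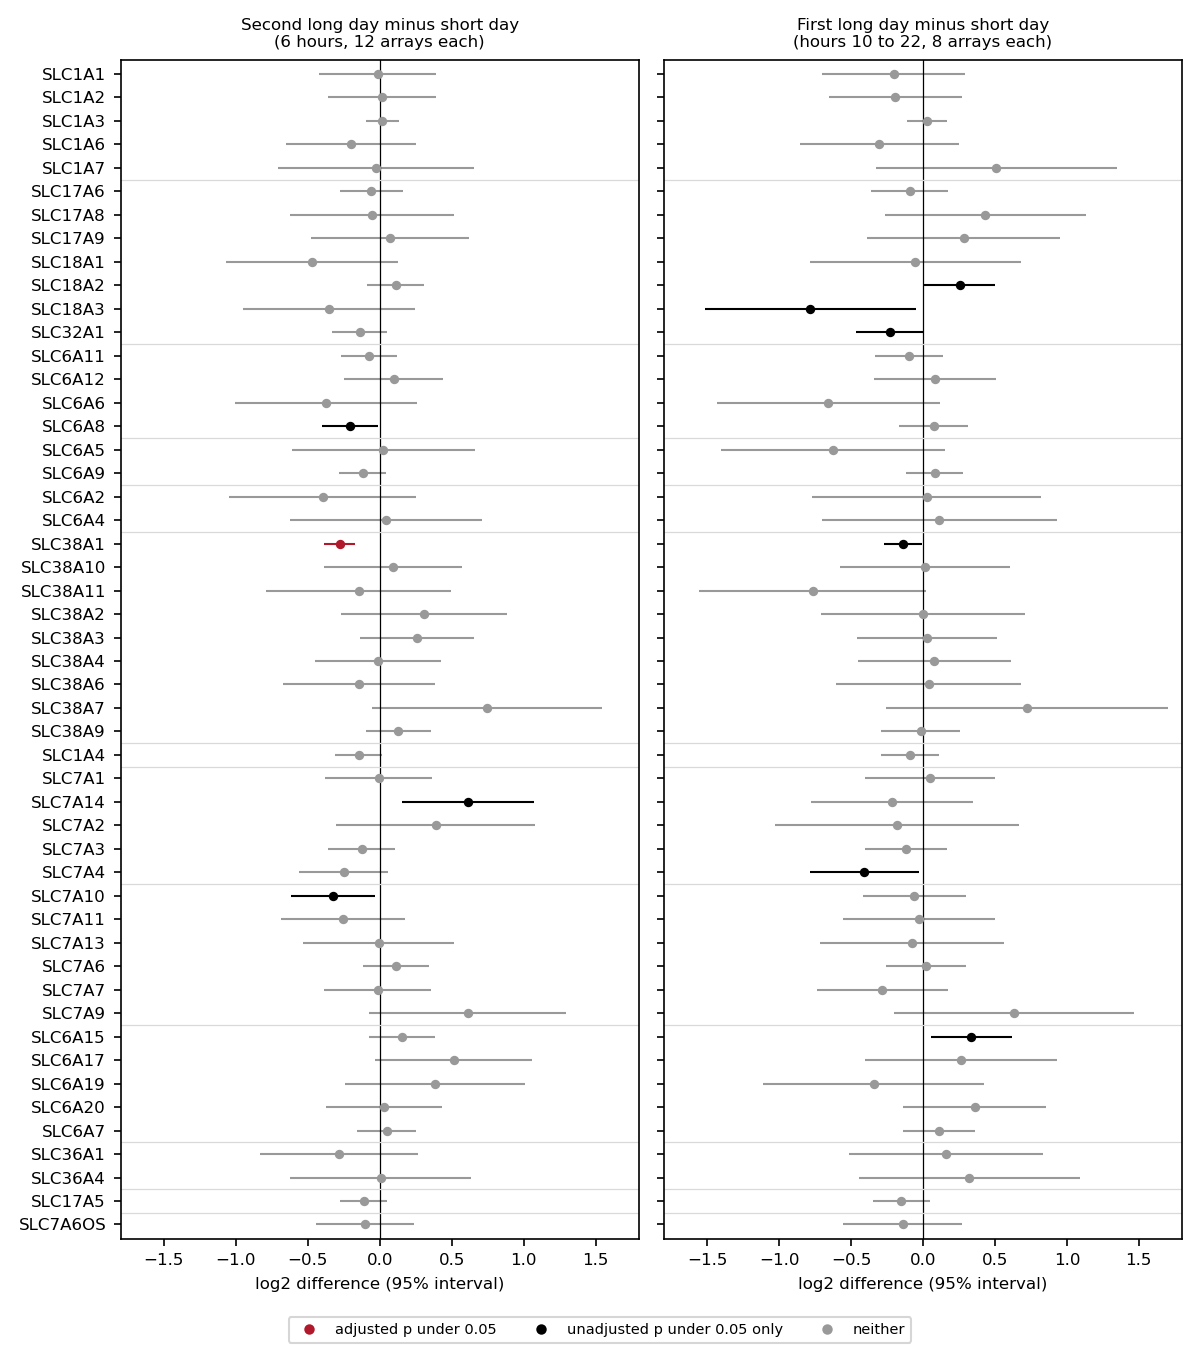
Log2 difference with its 95% interval for the 50 genes, ordered by role, on the second long day minus the short day (left, 12 arrays each) and on the first long day minus the short day at hours 10 to 22 (right, 8 arrays each). SLC38A1 on the left is the 1 gene with an adjusted p under 0.05 (red); 3 further genes on the left and 6 on the right have an unadjusted p under 0.05 (black).

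A p that misses the threshold leaves a range of differences, and the intervals give it. On the second long day the 95% interval lay within 1.5-fold in either direction for 26 of the 50 genes and within 2-fold for 41. Among the 20 brightest probe sets the counts were 19 and 20. At hours 10 to 22 of the first long day they were 20 and 39 of 50, and 17 and 20 of the 20 brightest. The widest interval reached 2.92-fold on the second long day, in SLC38A7.

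On the first long day, the hours from 10 to 22 were set against the same hours of the short day, and 0 of the 50 genes were called, beside 0.0561% of all probe sets. At an unadjusted p under 0.05 there were 6 genes with limma, or 12% against 5.63% of all probe sets. SLC6A15 and SLC18A2 had higher signals, and SLC7A4, SLC18A3, SLC38A1 and SLC32A1 lower ones, all with an adjusted p of 0.825 or above. The second probe sets of SLC18A2 and SLC32A1 had the opposite sign, at -0.04 and 0.30. Those of SLC6A15 and SLC7A4 had the same sign as the brightest, at 0.19 and -0.15. The second SLC38A1 probe set was near 0, at -0.01 (95% interval -0.25 to 0.23), where the brightest differed by -0.14. SLC38A1 probe sets 3, 4 and 5 lay above 0, at 0.11, 0.34 and 0.09, and probe set 6 below, at -0.33. The differences of the 50 genes ran from -0.78 to 0.72, with 24 above 0 and 26 below and a median of -0.01 beside 0.00 over all probe sets. A joint test of the 4 hours called 0 genes, beside 0.053% of all probe sets, with 2 genes (4%, against 4.5%) at an unadjusted p under 0.05. Hours 2 and 6 of the first long day also called 0 genes, beside 0.00312% of all probe sets, with 3 genes (6%, against 5.32%) at an unadjusted p under 0.05, which were SLC38A1, SLC7A14 and SLC32A1. Between the second and the first long day 0 genes were called, beside 0.0905% of all probe sets, and 0 had an unadjusted p under 0.05, against 7.86% of all probe sets. The arrays of the days compared overlapped in all 50 genes in both of these comparisons, of hours 10 to 22 and of the long days with each other, beside 0.0593% and 0.00312% of all probe sets that did not overlap.

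Whether a gene varied over the hours of one day was tested within each day. No gene was called in the short day, the first long day or the second long day, beside 0.0624%, 0.0624% and 0.0499% of all probe sets. At an unadjusted p under 0.05 limma's F test gave 2, 2 and 7 genes, or 4%, 4% and 14%, against 4.31%, 4.21% and 9.31% of all probe sets. The shape of the second long day against that of the short day called 0 genes beside 0.00312% of all probe sets, with 2 genes (4%, against 5.78%) at an unadjusted p under 0.05. Any difference among the 21 time points called 0 genes beside 0.221%, with 6 genes (12%, against 6.95%) at an unadjusted p under 0.05.

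SLC7A3, a cationic carrier of brain in mammals, was the single gene with an unadjusted p under 0.05 in all 3 days, and none of these passed the adjustment. In the short day SLC7A3 averaged 56.2, 56.1, 57.1, 63.5, 96 and 76.9 from 2 to 22 h (adjusted p = 1 with limma). On the first long day it averaged 52.9, 60.0, 41.8, 64.5, 54.5, 68.5, 87.6, 79.7 and 97.8 from 26 to 46 h (adjusted p = 0.694). Its high values thus fell at 18 h in the short day and at 42 to 46 h in the first long day. On the second long day SLC7A3 had its highest mean at 62 h, 74.9, and its lowest at 54 h, 41.8 (adjusted p = 0.528). Over all 21 times it had the smallest p of the 50 genes (adjusted p = 0.311). The second SLC7A3 probe set correlated with the brightest at 0.34 over the 42 arrays. SLC7A3 has 7 tested probe sets. For the profile of the first long day, limma's F test gave an unadjusted p of 0.0022 in the brightest and 0.11 to 0.77 in the others.

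SLC6A11 had its highest mean at 38 h, 566, and its lowest at 44 and 46 h, 315 and 301. The 4 arrays of 44 and 46 h ran from 268 to 334, and of the remaining arrays a single one, at 50 h with 305, lay as low. Against the matching short-day hours SLC6A11 was 1.48-fold lower at 44 h (adjusted p = 0.903) and 1.66-fold lower at 46 h (adjusted p = 0.916), as folds between means of log2 signals, and neither passed the test. Its second probe set followed the first over the 42 arrays, with a correlation of 0.74. On the second long day SLC6A11 averaged 382 at 50 h and 468 at 54 h.

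On the second long day, SLC7A11 had the smallest p of the profile (adjusted p = 0.352), with 9.45 at 50 h and 9.85 at 62 h and 28.6 at 66 h. SLC6A20 ran between 37.6 at 54 h and 11.7 at 66 h (adjusted p = 0.366), and SLC7A6, which pairs with SLC3A2 to exchange arginine for glutamine, between 73.2 at 54 h and 40.0 at 66 h (adjusted p = 0.432). The others with an unadjusted p under 0.05 were SLC1A6, SLC36A4, SLC7A7 and SLC7A3.

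Every sampled hour of the long days was also set against the short day, at times between short-day hours against the mean of the neighbouring ones, and 0 of 750 tests of a gene at an hour were called, beside 0.0218% over all probe sets and the same 15 times. At an unadjusted p under 0.05 there were 46, or 6.13%, against 5.55% over all probe sets. Each hour was adjusted on its own. The lowest adjusted p of the 50 genes was 0.342 with limma, at 62 h, the time with the lowest correlation between its 2 arrays (0.812). The smallest unadjusted p belonged to SLC7A4 at 40 h, with 72.2 ± 48.1 (n = 2) against 160 on the short day. That is 2.40-fold lower between means of log2 signals (adjusted p = 0.473 with limma). Its 2 arrays differed widely, at 106 and 38.2, so the value rests on which array is kept. Without the higher array SLC7A4 was 4.00-fold lower on the same scale and passed the test (adjusted p = 0.0228), and without the lower array it was 1.44-fold lower and did not (adjusted p = 0.983), with the remaining array taken to vary like the other time points.

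**Figure D4:**
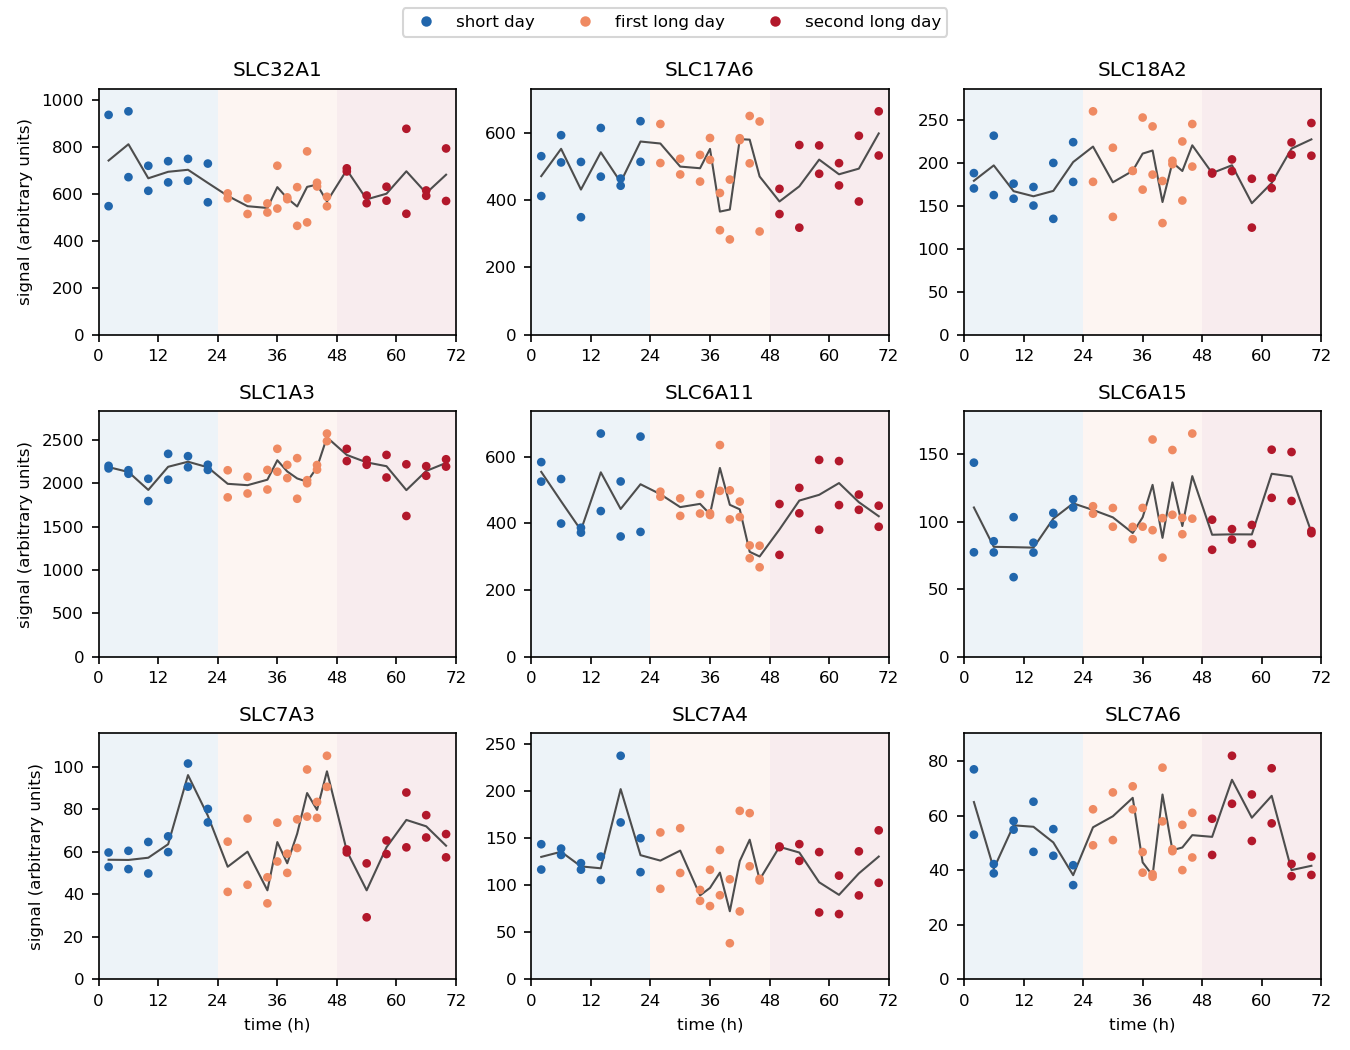
Signal (arbitrary units, linear axes from 0) of 9 genes against time in h, with 1 point per array and the line through the means of the 2 arrays, for vesicular carriers (SLC32A1, SLC17A6, SLC18A2), uptake carriers (SLC1A3, SLC6A11, SLC6A15) and SLC7 genes (SLC7A3, SLC7A4, SLC7A6). SLC7A3 is high at 18 h and from 42 to 46 h and SLC6A11 low at 44 and 46 h, while SLC1A3 and SLC17A6 show the spread of arrays within each time point on all 3 days.

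Different probe sets of a gene often disagreed. Of 30 genes with 2 or more tested probe sets, 20 had probe sets with differences of opposite sign on the second long day and 23 at hours 10 to 22 of the first. These counts were not made over all genes on the array. The second probe set had a mean signal of 40 or more in 8 of the 30 genes, and the part of low signal in the disagreement was not tested. The correlation of the second probe set with the brightest over the 42 arrays, which share their scaling, had a median of 0.083 and ran from -0.28 to 0.76, and was above 0.5 in SLC1A3 and SLC6A11. None of the other tested probe sets was called in any of these comparisons. The second SLC1A3 probe set differed by -0.01 on the second long day, as close to 0 as the brightest. The second SLC32A1 probe set, with a mean signal of 12.3, differed by 0.64 where the brightest differed by -0.14. Of the 50 genes, 12 have 1 probe set each. Among them are the vesicular carriers SLC17A6 and SLC18A3 and the uptake carriers SLC1A2, SLC6A2, SLC6A4, SLC6A8 and SLC6A9. The others are SLC38A3, SLC38A4, SLC38A9, SLC7A13 and SLC7A6OS.

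The genes around the transporters were read from lists of the same pathways. Of 7 tested genes of GABA and glutamate metabolism, 10 of monoamine synthesis and breakdown, 3 of acetylcholine, 1 heavy chain and 12 of the response to amino acid shortage, 0 were called in any comparison. In the list of GABA and glutamate metabolism the smallest p-values of the second long day were those of GAD1 (0.48, adjusted p = 0.395) and GAD2 (-0.16, adjusted p = 0.421), both of which make GABA from glutamate, and of GOT2, an aminotransferase (0.11, adjusted p = 0.458). In the acetylcholine list CHAT, which makes acetylcholine, differed by 0.60 (adjusted p = 0.285), with 23 of 42 arrays at or below the floor. In the monoamine list the smallest were those of QDPR, PTS and TPH2, at 0.13, 0.15 and 0.37 (adjusted p = 0.524, 0.670 and 0.693). In the amino acid response they were those of CEBPB (0.38, adjusted p = 0.190), VLDLR (-0.18, adjusted p = 0.225) and DDIT4 (0.72, adjusted p = 0.375). ATF4, the factor through which that response acts, had 415 ± 33.8 on the second long day and 430 ± 44.4 on the short day (n = 12 each).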

How the data were processed

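Affymetrix chicken arrays measured RNA of 42 pools of mediobasal hypothalamus. The deposited values are linear signal intensities, 1 per probe set, made with GCOS 1.2 per the submitters' processing notes; the scaling used there is not given in the sources used here. Each array was scaled here to a 2% trimmed mean of 32.42 (factors 0.796 to 1.29), floored at 3.509, the median of the arrays' 25th percentiles, and put on the log2 scale. Of 38439 probe sets that are not controls, 32057 lay above the array median on at least 2 arrays and were tested with limma 3.58.1 in R 4.3.3: 1 mean per time point, all 42 arrays, a variance trend, contrasts or F tests of those means, and Benjamini-Hochberg adjustment over all tested probe sets, at 0.05. The script was tested on simulated data. Symbols came from the platform annotation: 27168 probe sets had 1 symbol, 177 several and 11094 none. Neighbouring genes came from the protein-coding genes of the quail RefSeq annotation, where 48 of 50 genes matched.

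The genes, lists and tests were chosen with earlier results of these data known. Every gene may be named; the called gene, the vesicular and excitatory carriers and the smallest p of each role group are given by array range. Separate pools of 3 birds are the replicates, so p-values measure the spread between pools. Equal replicate numbers did not pair the arrays: deviations of same-numbered arrays correlated between -0.035 and 0.037, over 0.1 in 0 of 210 pairs of times. No sequence was used here, and 17 transporters of these families were not analysed here. Alternatives changed the scaling, floor, filter, variance model, probe set rule, hours and arrays.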

Additional observations from a re-analysis of the deposited data

How the results depend on the processing

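Among 56 alternatives, the count of 1 gene called on the second long day held in 52 and the call of SLC38A1 in 53. Of the 56, 42 left out 1 array each, and 18 of those arrays, from the first long day, enter this comparison only through the shared variance. No such run changed the count or the call. All 4 changes of the count, and every loss of the SLC38A1 call, thus came from the fewer remaining alternatives. Without scaling, 11 genes were called, all lower (SLC17A5, SLC1A3, SLC1A4, SLC32A1, SLC38A1, SLC6A11, SLC6A8, SLC6A9, SLC7A10, SLC7A3 and SLC7A4); there the median of all probe sets was -0.19, against 0.04 after scaling, 3510 probe sets were called in place of 438, and the unscaled arrays of the second long day were the dimmest. The same setting called 2 genes between the second and the first long day (SLC38A1 and SLC6A8) and 1 over the 21 times (SLC38A1). The count on the second long day was 0 without a variance trend, 0 with the median over a gene's probe sets and, an alternative chosen after seeing the data, 0 over hours 10 to 22 alone, with 149, 137 and 196 probe sets called; the cause was not tested. SLC38A1 was -0.54 unscaled, -0.41 with median centring and -0.21 with quantile normalization. With gene medians it was 0.082 on the second long day and 0.15 at hours 10 to 22 of the first, where SLC32A1 was 0.034. Leaving out each array in turn gave SLC38A1 from -0.31 to -0.25 on the second long day, called each time; the tests of single hours called 0 to 1 gene, the 1 being SLC7A4 without the second array of 40 h. With the replicate number as a block, which the arrays' deviations do not bear out as a pairing, 1 gene was called on the second long day, SLC38A1 (adjusted p = 0.00288), 0 at hours 10 to 22 of the first, and no call changed. Using only the compared arrays is the same fit for the test over all 21 times, so it was not run again. Depth here is signal over the floor: 20 genes fall to or below the floor on some array, and pools of 3 birds hide the spread between birds.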
